A study of Mus musculus with 18 samples.

Results

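The Fc receptor genes are 8 of the 19326 genes in the spleen table, taken by name: Fcgr1, Fcgr2b, Fcgr3, Fcgr4, Fcer1g, Fcer2a, Fcamr and Fcgrt. They were described across 18 libraries in 6 groups of 3. All 8 reached the filter on low values (an RPKM of 1 or more in at least 3 libraries), as did 12905 genes in all. RPKM is a read count scaled to the length of the gene and to the depth of the library, so levels of different genes can be set side by side.

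The study asked whether gut microbiota from mice given alginate oligosaccharide (AOS, short sugar chains from alginate) alter the state of mice made diabetic with streptozotocin (STZ), a toxin of the insulin-producing cells. All groups were ICR mice aged 10 weeks, and all libraries came from whole spleen. Con mice were untreated controls (regular diet and saline). A10 mice were given AOS at 10 mg/kg, STZ mice received STZ, and STZ-A10 mice received both STZ and AOS. A10-FMT mice received STZ and oral transplants (FMT) of small intestinal content from AOS-dosed donors, and Con-FMT mice received STZ and the same kind of transplant from water-dosed donors. The content of the donors of one kind was pooled before transfer, so the 3 libraries of a transplant group share 1 inoculum. The schedule of AOS in the A10 and STZ-A10 mice and the sampling of animals into libraries are not given in the sources used here, so the p-values measure only the spread between these libraries, which may be technical.

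Fc receptors bind the constant part of antibodies and link antibody to cells. Fcgr1, Fcgr3 and Fcgr4 encode activating receptors for IgG, which signal through the common gamma chain encoded by Fcer1g, whereas Fcgr2b encodes the inhibitory IgG receptor of B cells and myeloid cells. Fcer2a (CD23) is the low-affinity IgE receptor, found mainly on mature follicular B cells, Fcamr encodes a receptor for IgM and IgA, and Fcgrt encodes the neonatal Fc receptor, which protects IgG and albumin from breakdown in endothelial and myeloid cells. In the spleen these proteins sit on follicular B cells, red pulp macrophages, monocytes and vessel walls.

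Fcer2a was the receptor with the largest difference between mice given STZ without a transplant and mice not given STZ. In STZ and STZ-A10 its fitted level was 0.459 times that in Con and A10 on the RPKM + 1 scale. Every library of those groups lay below every Con and A10 library, a split whose share over all genes was not counted. The limma adjusted p of the comparison was 0.0506 and did not pass the threshold of 0.05. Fcgr4 was higher and Fcamr lower in the same comparison, with limma unadjusted p-values of 0.0333 and 0.0215 and adjusted p-values of 0.222 and 0.179. Of all genes 18.2% had an unadjusted p under 0.05 there. None of the 8 genes passed the adjusted threshold in any of the 9 comparisons run with limma across all 12905 genes, of which 0% to 3.3% passed. In the test for any difference among the 6 groups, 3 of 8 (Fcer2a, Fcgr4 and Fcamr) had an unadjusted p under 0.05, as did 22.6% of all genes.

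The stretches before the start sites of 3 members are shown because Fcer2a and Fcamr varied together across the libraries and Fcgr4 varied against them. Each is the 250 bases before a RefSeq start site (GRCm38.p6, 5′ to 3′ on the gene's strand). Capitals mark matches to GAGGAA or its complement (the core bound by the ETS factor PU.1) and to TTC and GAA set 4 bases apart (the spacing bound by STAT6). The pair of TTC and GAA reads the same on both strands, and the search covered both. GENCODE M21 places neither the Fcamr nor the Fcer2a stretch in an exon, the Fcer2a stretch lies in an intron of longer Fcer2a transcripts, and the last 6 bases of the Fcgr4 stretch are in its first exon.
Fcer2a chr8:3690862-3691111 (- strand): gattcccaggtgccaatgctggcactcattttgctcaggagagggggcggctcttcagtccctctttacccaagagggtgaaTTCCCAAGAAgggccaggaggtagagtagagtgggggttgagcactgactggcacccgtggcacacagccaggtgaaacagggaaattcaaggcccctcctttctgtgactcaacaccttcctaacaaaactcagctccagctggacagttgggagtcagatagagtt
Fcamr chr1:130800652-130800901 (+ strand): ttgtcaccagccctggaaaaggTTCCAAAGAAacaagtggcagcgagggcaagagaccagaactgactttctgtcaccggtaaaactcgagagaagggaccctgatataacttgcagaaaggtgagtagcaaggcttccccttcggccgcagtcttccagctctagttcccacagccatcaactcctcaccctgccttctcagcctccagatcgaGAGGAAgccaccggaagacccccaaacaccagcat
Fcgr4 chr1:171018676-171018925 (+ strand): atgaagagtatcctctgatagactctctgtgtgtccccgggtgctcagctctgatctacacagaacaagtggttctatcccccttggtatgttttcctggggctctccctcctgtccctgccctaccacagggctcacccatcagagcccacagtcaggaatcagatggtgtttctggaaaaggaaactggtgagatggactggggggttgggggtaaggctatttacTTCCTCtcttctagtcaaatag

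The pair set 4 bases apart was found once before Fcamr, at -228 to -219 from the start site, and once before this Fcer2a start, at -168 to -159, with the matches TTCCAAAGAA and TTCCCAAGAA. It occurs in 6.95% of the 32851 RefSeq promoter windows of 300 bases. Fcer2a has 3 RefSeq start windows, and the other 2 held no match to either motif. GAGGAA was found before Fcgr1, Fcgr3, Fcgr4 and Fcamr, and occurs in 28.3% of windows. These are matches of letters and not shown sites of binding.

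As annotated in GENCODE M21 (GRCm38), 5 of the 8 genes lie on chromosome 1. Fcgr2b (chr1:170958617-170976547), Fcgr4 (chr1:171018920-171029761), Fcgr3 (chr1:171051174-171064935) and Fcer1g (chr1:171229572-171234365) lie close together there. Fcamr is at chr1:130800902-130814740, Fcgr1 at chr3:96282909-96293969, Fcgrt at chr7:45092990-45103851 and Fcer2a at chr8:3681737-3694175. All 8 are protein-coding. Fcgr1, Fcgr3 and Fcgr4 share no identical stretch of 50 bases with transcripts of any other gene. The search allowed no mismatch, whereas the paper's alignment allowed some, and the read length is not given in the sources used here. Whether reads of these homologous receptors were kept apart was therefore not tested. Fcgr2b and Fcer2a share 2.48% and 1.73% of their stretches of 50 bases with other genes, none of them members. Antisense genes overlap Fcamr, Fcgr2b and Fcgrt, and whether the counting used strand is not given in the sources used here.

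The libraries were similar in depth but not in makeup. The table holds no read counts, and from the lowest non-zero values of 806 rarely detected genes taken as 1 read each, a library held roughly 10.5 to 12.2 M mapped reads. At that depth Fcgr1 rested on about 32.8 to 88.5 reads and Fcer2a on about 515 to 3480. The share of globin genes in the summed RPKM ran from 10.4% to 42.7%. Replicate 3 of A10-FMT stood apart: it had the highest globin share, the highest Alb level (174.72 RPKM, a liver transcript) and the lowest median of all tested genes, and it was lowest of the 18 libraries in 6 of 8 members and highest in Fcgr4. Replicate 1 of Con had a summed neutrophil marker level of 16269 RPKM, against 464.53 to 4445.3 in the other 17 libraries. Replicate 2 of Con had the highest level of Prm1, a testis transcript (85.59 RPKM, against 0 to 11.27 in the other 17). Alb was at 104.59 and 97.95 RPKM in replicates 2 and 3 of Con. Replicate 2 of A10-FMT had the highest level of Prss2, an exocrine pancreas transcript (1450.7 RPKM). B cell markers, which a spleen should hold, were present in every library, the lowest value being 6.16 RPKM for Ebf1.

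Fcer1g was the most abundant, with a mean of 140 RPKM over the 18 libraries (66.7 to 212), followed by Fcer2a at 74.1 (18.8 to 142). Fcgr2b followed at 44.2 (17.5 to 57.2) and Fcgrt at 37.3 (22.2 to 57.9). Fcgr3 was at 15.3 (10.6 to 27.3), Fcgr4 at 9.38 (4.24 to 20.5), Fcamr at 8.42 (1.65 to 13.7) and Fcgr1 at 1.84 (1.13 to 3.12). Each neighbouring pair in this order overlapped in range over the 18 libraries. The alpha and beta chains of the high-affinity IgE receptor, Fcer1a and Ms4a2, which pair with the Fcer1g chain on mast cells and basophils, did not exceed 0.54 and 0.65 RPKM in any library and were not tested.

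**Figure D1:**
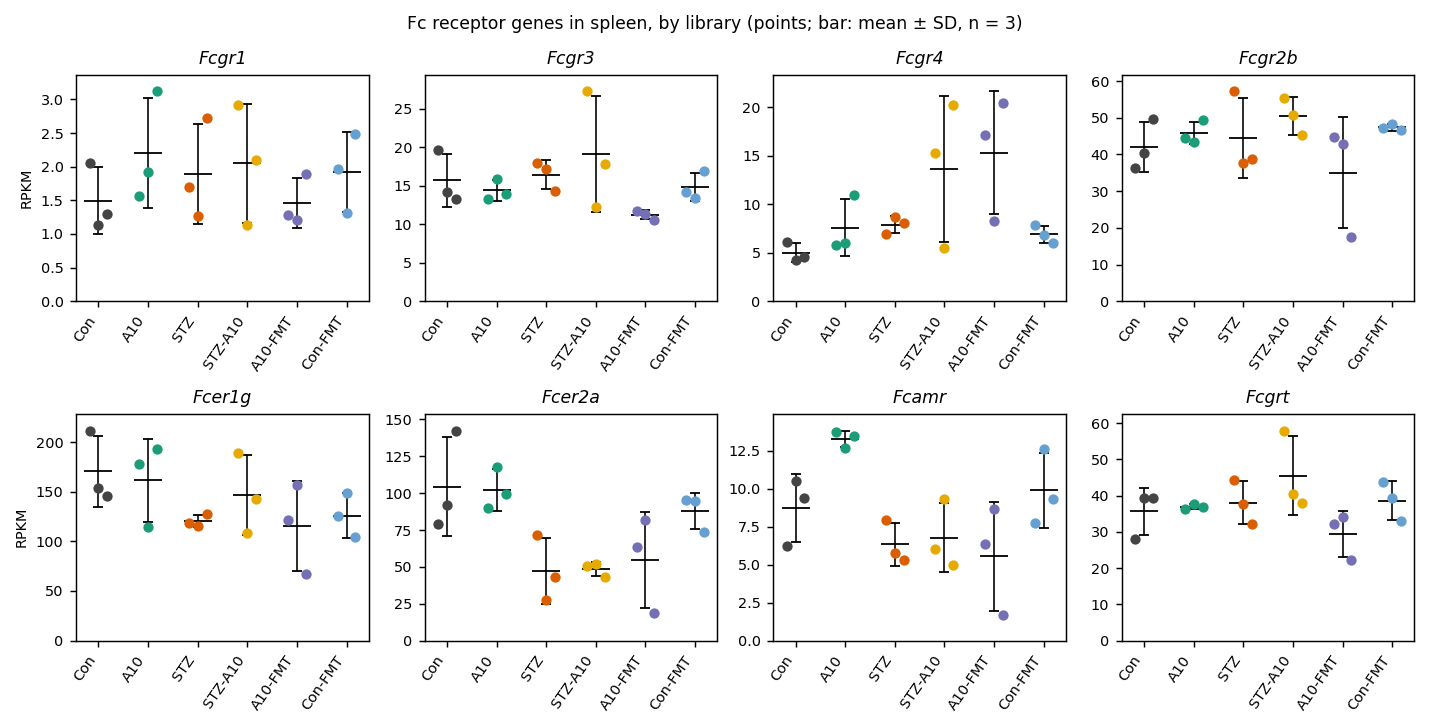
RPKM of the 8 Fc receptor genes (y axis of each panel, starting at 0) in the 6 groups (x axis), with each library as a point in replicate order, and the mean and SD (n = 3) as bars. Fcer2a lies between 27.3 and 71.7 RPKM in the 6 STZ and STZ-A10 libraries and between 79.1 and 142 in the 6 Con and A10 libraries, and replicate 3 of A10-FMT is the lowest point in 6 panels.

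Fcer2a, which encodes CD23, was at 79.1, 91.9 and 142 RPKM in the 3 Con libraries and at 90, 117 and 99.2 in the A10 libraries. It was at 71.7, 27.3 and 42.9 RPKM in STZ and at 50.3, 51.9 and 42.9 in STZ-A10. In the transplanted mice it was at 63.5, 81.6 and 18.8 RPKM in A10-FMT and at 95.2, 94.7 and 73.7 in Con-FMT. The 6 libraries from mice given STZ without a transplant therefore lay below all 6 libraries from mice without STZ. The share of all genes with such a split was not counted. The Con-FMT libraries lay just above the STZ libraries. A10-FMT reached from below the lowest STZ library into the Con range.

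Group means of Fcer2a were 104 ± 33.5 RPKM in Con (SD, n = 3), 102 ± 14.0 in A10, 47.3 ± 22.5 in STZ and 48.4 ± 4.76 in STZ-A10. The difference of STZ from Con was -1.19 on the log2(RPKM + 1) scale (SE 0.42, limma unadjusted p = 0.0123, adjusted p = 0.258). The average effect of STZ, the mean of STZ and STZ-A10 minus the mean of Con and A10, was -1.12 (SE 0.30, 95% interval -1.75 to -0.49, adjusted p = 0.0506). This value is just outside the threshold. It passed under quantile normalization (adjusted p = 0.037), under median centring (0.0278) and in a fit of the compared groups alone (0.0183), and did not pass without the filter (0.0746), with a pseudocount of 0.1 (0.0518) or with a replicate block (0.0629). With 1 library left out it passed in 4 of 18 cases, and its adjusted p was highest without replicate 2 of STZ (0.143). Without replicate 3 of A10-FMT, which enters the average through the shared estimate of spread, the adjusted p of Fcer2a was 0.00562, and that of STZ against Con was 0.0449.

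Con-FMT was 0.98 higher than STZ in Fcer2a on the log2(RPKM + 1) scale, without overlap of the libraries (SE 0.42, limma unadjusted p = 0.0337, adjusted p = 0.929). A10-FMT was 0.07 higher than STZ, with overlap (adjusted p = 0.926), and 0.70 higher without its replicate 3 (adjusted p = 0.592). A10-FMT was 0.90 lower than Con-FMT (95% interval -1.79 to -0.01, adjusted p = 0.209), with 1 of its 3 libraries inside the Con-FMT range, and 0.27 lower without its replicate 3 (adjusted p = 0.865). The STZ and Con-FMT comparisons share the STZ libraries, so their opposite signs are not independent. AOS alone and AOS added to STZ gave differences of 0.01 and 0.13 with overlapping libraries (intervals -0.88 to 0.90 and -0.76 to 1.02), and the first of these was below 0 under quantile normalization and median centring.

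The difference of Fcer2a between STZ and Con was set beside the B cell markers. The list held 12 genes, among them Ms4a1, Cd79a and Pax5, and none passed the threshold in STZ against Con, where 2 were higher and 10 lower with a median of -0.19 (median of all genes -0.01). Its summed level was 1740.1 to 2974.9 RPKM in Con and 1616.8 to 2970.4 in STZ, and no list gene was at 0. Fcer2a less the mean of the list, on the log2(RPKM + 1) scale, was -0.28, -0.42 and -0.16 in Con and -1.14, -1.66 and -1.11 in STZ. It was -0.64, -0.12 and -0.56 in A10 and -1.56, -1.32 and -1.25 in STZ-A10. In A10-FMT it was -0.72, -0.55 and -0.94, and in Con-FMT -0.43, -0.40 and -0.76.

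On this relative scale both transplant groups lay above the 6 STZ and STZ-A10 libraries without overlap, including replicate 3 of A10-FMT, whose B cell list sum was 666 RPKM. STZ was 1.02 lower than Con, Con-FMT 0.77 higher than STZ and A10-FMT 0.57 higher than STZ. This comparison with the list was chosen after the values were seen. Its two-sided exact permutation p was 0.10 in each of these pairs, the smallest that 3 against 3 allows. Given the late choice, that p is not read as support. In bulk spleen, fewer cells of a type and less RNA per cell cannot be told apart.

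Other marker lists were read in STZ against Con beside Fcer2a, where 52.4% of all genes were lower. All 9 T cell markers were lower in STZ, with a median of -0.35 and 0 past the threshold. Of these 9, 0 had an unadjusted p under 0.05 (11.1% of all genes). Their summed level was 176 to 268 RPKM against 195 to 339.9 in Con. All 10 exocrine pancreas markers were higher, with a median of 3.12, 0 past the threshold and a summed level of 1144.4 to 4961.1 RPKM against 23.1 to 1981.3. All 6 adipose markers were lower, with a median of -1.77, 0 past the threshold and a summed level of 8.91 to 28.0 RPKM against 31.3 to 167. All 4 testis germ cell markers were lower, with a median of -2.73 and 1 past the threshold. All 12 liver and all 9 natural killer cell markers were lower, with medians of -2.29 and -0.69 and 0 past the threshold. Of 15 red pulp macrophage markers 14 were higher, with a median of 0.41 and 0 past the threshold. For the average effect of STZ, 3.3% of all genes passed the threshold. There 2 exocrine pancreas and 3 red pulp macrophage markers rose. In the same comparison 6 adipose, 7 liver, 6 platelet, 5 natural killer cell and 1 testis germ cell markers fell. Of the B cell, T cell, monocyte and neutrophil markers 0 passed. The part of adhering tissue and of these cells in the Fc receptor values was not tested.

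**Figure D2:**
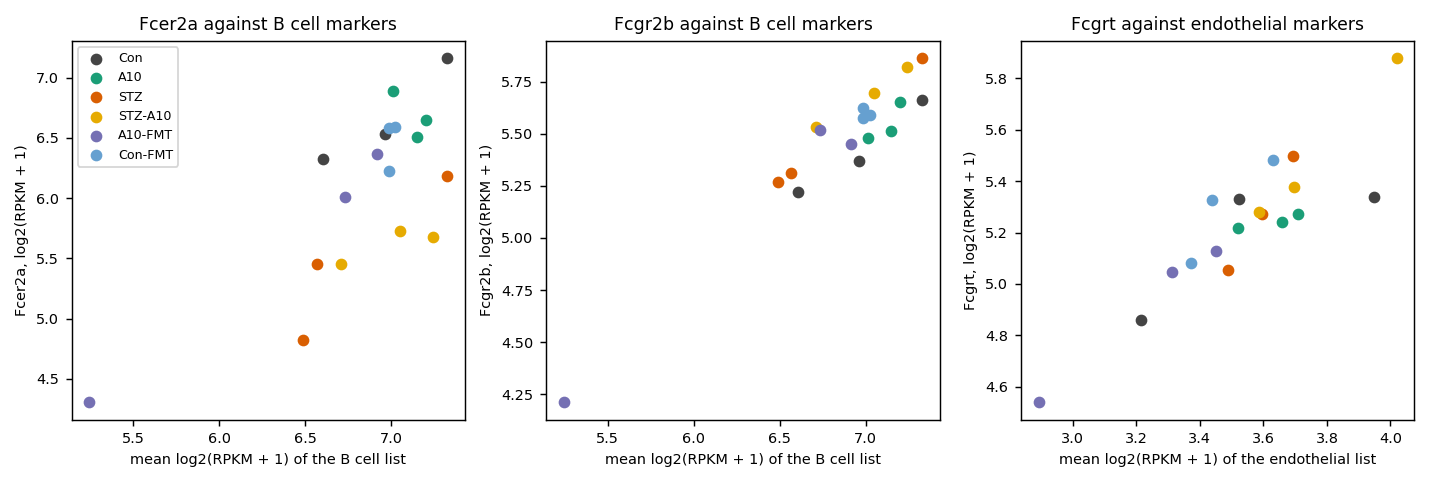
Level of a member (y axis, log2(RPKM + 1)) against the mean level of a marker list in the same library (x axis, log2(RPKM + 1)), for Fcer2a and Fcgr2b with B cell markers and Fcgrt with endothelial markers; each point is 1 of 18 libraries, coloured by group. At a given B cell level the STZ and STZ-A10 libraries lie lower in Fcer2a than the others, and replicate 3 of A10-FMT is at the lower left of each panel.

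Fcamr, the IgM and IgA receptor gene, was at 6.20, 10.5 and 9.39 RPKM in Con and at 13.7, 12.7 and 13.4 in A10. It was at 7.96, 5.79 and 5.28 RPKM in STZ and at 6.02, 9.33 and 4.99 in STZ-A10. A10-FMT had 6.34, 8.68 and 1.65 RPKM and Con-FMT 7.76, 12.6 and 9.32. The 3 A10 libraries lay above all Con libraries and above all other 15, an order whose share over all genes was not counted. The STZ and Con ranges overlapped.

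The average effect of STZ on Fcamr was -0.65 on the log2(RPKM + 1) scale (SE 0.25, limma adjusted p = 0.179). It passed the threshold in a fit of the compared groups alone (adjusted p = 0.0472) and without replicate 3 of A10-FMT (adjusted p = 0.0269). AOS alone was 0.58 higher than Con (SE 0.36, adjusted p = 0.989). Con-FMT was 0.56 higher than STZ with overlap (adjusted p = 0.964), and A10-FMT was 0.90 lower than Con-FMT (adjusted p = 0.204), or 0.35 lower without replicate 3 of A10-FMT. Across the 18 libraries Fcamr followed Fcer2a (Pearson r = 0.84, Spearman rho = 0.81, and r = 0.73 without replicate 3 of A10-FMT). This is the highest r of the 28 pairs of members, and the points share library scaling and group.

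Fcgr4, the activating receptor for IgG2 antibodies on monocytes and neutrophils, was at 6.09, 4.24 and 4.61 RPKM in Con and at 6.91, 8.65 and 8.05 in STZ. It was at 5.75, 6.03 and 10.9 RPKM in A10 and at 15.3, 5.44 and 20.3 in STZ-A10. A10-FMT had 17.2, 8.23 and 20.5 RPKM, and Con-FMT 7.82, 6.81 and 6.05. All STZ libraries lay above all Con libraries, and all A10-FMT libraries lay above all Con-FMT libraries. STZ-A10 held both the third lowest and the second highest of the 18 values.

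Fcgr4 in STZ was 0.58 above Con on the log2(RPKM + 1) scale (SE 0.37, limma adjusted p = 0.647), and the average effect of STZ was 0.62 (SE 0.26, adjusted p = 0.222). Without replicate 2 of STZ-A10, the lowest library of its group, the average effect was 0.87 with an adjusted p of 0.0465, and without replicate 3, the highest, it was 0.44 with an adjusted p of 0.446. A10-FMT was 0.96 above Con-FMT (SE 0.37, unadjusted p = 0.0204, adjusted p = 0.204), and 1.33 above it without replicate 2 of A10-FMT (adjusted p = 0.0353) and 0.72 without replicate 3 (adjusted p = 0.865). A10-FMT was 0.79 above STZ with overlap (adjusted p = 0.290), and 0.55 without replicate 3. The median of all genes in the A10-FMT comparisons was -0.15 against STZ and -0.17 against Con-FMT, and relative to it Fcgr4 was 0.94 and 1.13 higher.

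Markers of cells that carry the receptor were set beside it. Of 11 monocyte markers, 3 were higher and 8 lower in STZ than in Con, none past the threshold, with a median of -0.53. Their summed level was 1450.8 to 1989.3 RPKM in Con and 935 to 1264.7 in STZ, and the neutrophil markers spanned 854.11 to 16269 RPKM in Con and 464.53 to 1837.9 in STZ. No gene of either list was at 0 in any library. Fcgr4 less the mean of the monocyte list was 1.12 higher in STZ and 0.81 higher in A10 than in Con on the log2 scale, without overlap in either case. The part of these cells in the Fcgr4 level was not tested.

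Fcgr3, the activating IgG receptor of macrophages, natural killer cells and mast cells, was at 19.6, 14.2 and 13.3 RPKM in Con and at 17.9, 17.1 and 14.3 in STZ. A10 had 13.3, 15.9 and 13.9 RPKM and STZ-A10 27.3, 12.2 and 17.9. It was at 11.8, 11.4 and 10.6 RPKM in A10-FMT and at 14.2, 13.4 and 16.9 in Con-FMT. The A10-FMT libraries were the 3 lowest of all 18, below both the STZ and the Con-FMT libraries. The share of all genes with that order was not counted.

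Fcgr3 in A10-FMT was 0.51 below STZ on the log2(RPKM + 1) scale (SE 0.21, limma unadjusted p = 0.029, adjusted p = 0.269) and 0.37 below Con-FMT (SE 0.21, adjusted p = 0.259). Relative to the median of all genes these differences were -0.36 and -0.20, and without replicate 3 of A10-FMT they were -0.47 and -0.33. Red pulp macrophage markers were lower beside it. All 15 genes were lower in A10-FMT than in STZ, none past the threshold, and 72.3% of all genes were lower there. Their median was -0.49, with summed levels of 727 to 887 RPKM against 1090 to 1159.9. The list's part in the Fcgr3 values was not tested. STZ against Con gave 0.08 for Fcgr3 with overlap (95% interval -0.37 to 0.52), whereas 14 of the 15 red pulp macrophage markers were higher there, with a median of 0.41 and none past the threshold.

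Fcgr1, the high-affinity IgG receptor, was the lowest of the 8. It was at 2.06, 1.13 and 1.30 RPKM in Con, 1.56, 1.92 and 3.12 in A10 and 1.70, 1.27 and 2.72 in STZ. STZ-A10 had 2.91, 1.14 and 2.10 RPKM, A10-FMT 1.28, 1.21 and 1.89 and Con-FMT 1.97, 1.31 and 2.49. Every pair of groups compared overlapped, and the differences ran from -0.24 in A10-FMT against Con-FMT to 0.35 in A10 against Con on the log2(RPKM + 1) scale, with standard errors of 0.25. The small positive differences of STZ-A10 from STZ (0.06) and of Con-FMT from STZ (0.02) were below 0 under quantile normalization. The smallest adjusted p of these 6 was 0.517, for A10-FMT against Con-FMT.

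Fcgr2b, the inhibitory IgG receptor, was at 36.2, 40.3 and 49.6 RPKM in Con, 44.6, 43.5 and 49.3 in A10 and 57.2, 37.6 and 38.8 in STZ. STZ-A10 had 55.5, 50.8 and 45.3 RPKM and Con-FMT 47.2, 48.3 and 46.6. A10-FMT had 44.8, 42.8 and 17.5 RPKM. All 3 A10-FMT libraries were below all 3 Con-FMT libraries, the first and second by little and the third by far.

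The difference of A10-FMT from Con-FMT in Fcgr2b was -0.54 on the log2(RPKM + 1) scale (SE 0.26, limma adjusted p = 0.217), and -0.11 without replicate 3 of A10-FMT. STZ differed from Con by 0.07 (95% interval -0.49 to 0.62), with overlap. Fcgr2b less the mean of the B cell list moved by -0.09 to 0.24 on the log2 scale over the compared pairs. The largest move was in STZ against Con, with overlap, where the list differed by -0.17 and Fcgr2b by 0.07. Cd22, a B cell coreceptor of that list, was the gene most like Fcgr2b among 9355 genes searched, with a Pearson r of 0.98 over 18 libraries (0.95 without replicate 3 of A10-FMT).

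Fcer1g, the signalling chain shared by the activating receptors, was at 212, 154 and 146 RPKM in Con and at 119, 115 and 128 in STZ. A10 had 178, 114 and 193 RPKM and STZ-A10 189, 108 and 143. It was at 122, 157 and 66.7 RPKM in A10-FMT and at 125, 149 and 104 in Con-FMT. The STZ libraries were below all Con libraries, whereas the other pairs overlapped.

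STZ was 0.48 below Con in Fcer1g on the log2(RPKM + 1) scale (SE 0.28, 95% interval -1.08 to 0.12, limma adjusted p = 0.597), and 0.31 below it without replicate 1 of Con. A10-FMT was 0.15 below STZ and 0.20 below Con-FMT with overlap (adjusted p = 0.767 and 0.636), and both differences were above 0 without replicate 3 of A10-FMT, the first also under median centring. Markers of cells rich in Fcer1g were also lower in STZ than in Con: all 14 neutrophil and all 12 platelet markers, with medians of -2.08 and -1.46, and 0 and 1 past the threshold. They were all lower in A10 than in Con as well, with medians of -1.95 and -0.48, where Fcer1g differed by -0.09. The mean log2 level of the neutrophil list was 8.38, 6.65 and 4.54 in Con and 4.44, 3.87 and 5.55 in STZ. The platelet list summed to 892 to 2226.9 RPKM in Con and 265 to 778 in STZ. Fcer1g less the mean of the list was 1.43 higher in STZ than in Con for neutrophils, 1.02 higher for platelets and 0.06 higher for monocytes on the log2 scale, each with overlap. The highest Fcer1g value, 212 RPKM, was in the Con library with the highest neutrophil markers. The part of these cells was not tested.

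Fcgrt, which encodes the neonatal Fc receptor, was at 28.1, 39.3 and 39.4 RPKM in Con, 36.2, 37.7 and 36.9 in A10 and 44.3, 37.7 and 32.3 in STZ. STZ-A10 had 57.9, 40.5 and 37.9 RPKM, A10-FMT 32.0, 33.9 and 22.2 and Con-FMT 43.8, 39.2 and 32.8. All 6 pairs overlapped. A10-FMT was 0.37 below STZ (SE 0.19, limma adjusted p = 0.313) and 0.39 below Con-FMT (SE 0.19, adjusted p = 0.216) on the log2(RPKM + 1) scale, and 0.22 and 0.23 below them relative to the median of all genes. Without replicate 3 of A10-FMT the differences were -0.19 and -0.21.

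Fcgrt varied with the endothelial list of 10 genes, which includes Cdh5, Pecam1 and Kdr. The list differed by -0.37 between A10-FMT and STZ, as Fcgrt did, and the member less the list moved by -0.13 to 0.13 over the 6 pairs. Its summed level was 90.9 to 143 RPKM in A10-FMT and 146 to 185 in STZ, and none of its genes passed the threshold there. Alb, which encodes the other ligand of the neonatal Fc receptor, was at mean levels of 70.0 RPKM in Con, 0.907 in STZ and 83.2 in A10-FMT. By library it was at 7.59, 104.59 and 97.95 RPKM in Con and at 42.32, 32.58 and 174.72 in A10-FMT. Alb is made by liver, and all 12 liver markers were lower in STZ than in Con.

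**Figure D3:**
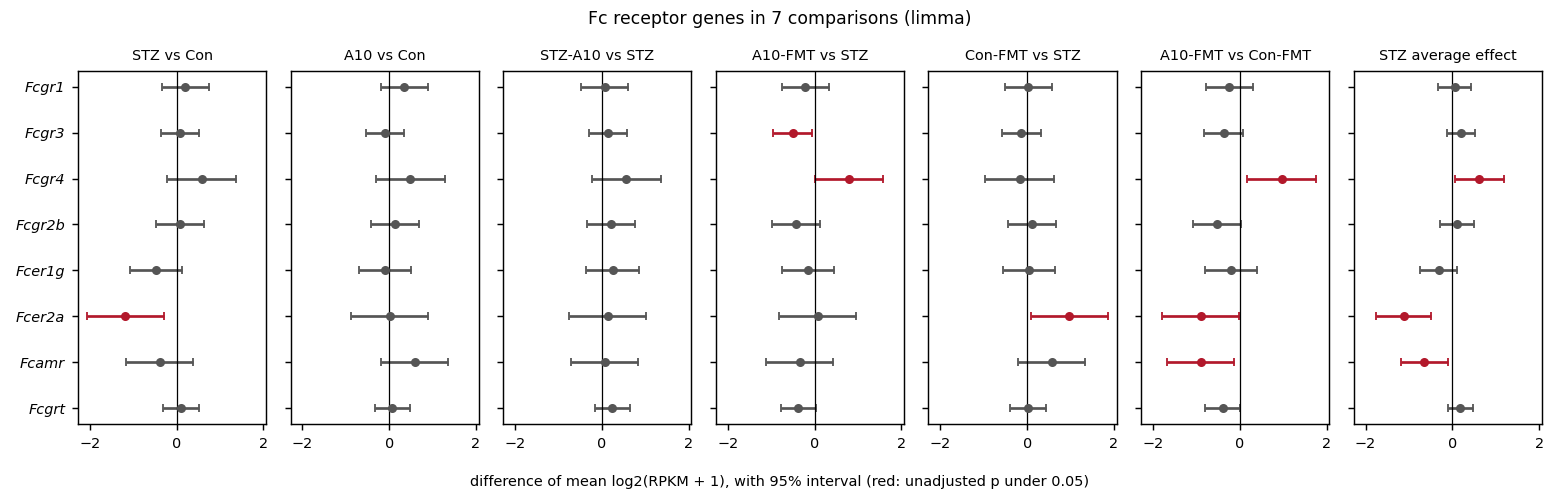
Difference of mean log2(RPKM + 1) (x axis) with its 95% interval from limma for the 8 Fc receptor genes (y axis) in the 6 group pairs and the average effect of STZ, with unadjusted p-values under 0.05 in red. Fcer2a is at -1.19 in STZ vs Con and at 0.98 in Con-FMT vs STZ, and Fcgr4 is at 0.96 in A10-FMT vs Con-FMT.

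The members were read against all genes in each comparison. In STZ against Con, 0 of 8 members passed the adjusted threshold, against 0.163% of all genes, and 1 of 8 (Fcer2a) had an unadjusted p under 0.05, against 11.1%. In that pair 3 of 8 members did not overlap between the groups (Fcgr4 higher, Fcer1g and Fcer2a lower), against 12.8% of all genes. For the average effect of STZ, 0 of 8 passed, against 3.3% of all genes, and 3 of 8 had an unadjusted p under 0.05, against 18.2%. In the test for any difference among the 6 groups, 0 of 8 passed, against 0.449%, and 3 of 8 had an unadjusted p under 0.05, against 22.6%.

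For AOS the members stood near or below the background. In A10 against Con, 0 of 8 passed (0.00775% of all genes), 0 had an unadjusted p under 0.05 (5.25%) and 1 did not overlap (Fcamr, higher, against 16.5%). In STZ-A10 against STZ, 0 of 8 passed (0.00775%), 0 had an unadjusted p under 0.05 (2.93%) and 0 did not overlap (8%). All 8 members were higher in STZ-A10 by their log2 means, with a median of 0.17. Of all genes 41.3% were lower there, with a median of 0.03. The interaction of STZ and AOS passed in 0 of 8 members (0% of all genes), with 0 at an unadjusted p under 0.05 (2.86%).

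The background differed widely among the transplant comparisons. In A10-FMT against STZ, 0 of 8 passed (0.00775% of all genes), 2 had an unadjusted p under 0.05 (Fcgr3 lower and Fcgr4 higher, against 17.2%) and 1 did not overlap (Fcgr3, against 14.4%). In Con-FMT against STZ, 0 of 8 passed (0.00775%), 1 had an unadjusted p under 0.05 (Fcer2a higher, against 5.24%) and 1 did not overlap (Fcer2a, against 13.2%). In A10-FMT against Con-FMT, 0 of 8 passed (0%), 3 had an unadjusted p under 0.05 (Fcgr4 higher, Fcer2a and Fcamr lower, against 23.6%) and 3 did not overlap (Fcgr4 higher, Fcgr2b and Fcgr3 lower, against 29.3%). Without replicate 2 of A10-FMT, Fcgr4, Fcer2a (-1.31, adjusted p = 0.0432) and Fcamr (-1.28, adjusted p = 0.0351) passed in that pair, as did 2625 genes in all. Without replicate 3 of A10-FMT, Fcgr4 (0.72), Fcer2a (-0.27) and Fcamr (-0.35) had an adjusted p of 0.865 each, and 0 genes passed.

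Ratios between members within a library were tested on the log2(RPKM + 1) scale, where the added 1 leaves a small dependence on scaling, and are given here as plain RPKM ratios by library. The ratio of activating to inhibitory receptor, Fcgr4 to Fcgr2b, was 0.384, 0.192 and 1.17 in A10-FMT and 0.166, 0.141 and 0.130 in Con-FMT, so the A10-FMT libraries were higher without overlap. In this pair Fcgr4 was higher and Fcgr2b lower, each without overlap, so their ratio could not overlap and adds nothing to the 2 genes. The difference of the log2(RPKM + 1) ratios was 1.5 (two-sided exact permutation p = 0.10, the smallest that 3 against 3 allows, adjusted p = 1 over 24 tests). It was 0.83 without replicate 3 of A10-FMT, a value with no test that was added after the data were seen. The same ratio was 0.168, 0.105 and 0.0930 in Con and 0.121, 0.230 and 0.208 in STZ, with overlap. The ratios of Fcgr1 and Fcgr3 to Fcgr2b overlapped in all 6 pairs.

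The ratio of the shared chain to a receptor that needs it, Fcer1g to Fcgr3, was 10.79, 10.85 and 10.96 in Con and 6.62, 6.72 and 8.93 in STZ. The STZ libraries were lower without overlap, by 0.56 on the log2 scale (two-sided exact permutation p = 0.10, adjusted p = 1). STZ-A10 had 6.93, 8.83 and 7.98, also below Con, whereas A10 (7.16 to 13.8), A10-FMT (6.29 to 13.8) and Con-FMT (6.14 to 11.1) spanned both. The 3 Con ratios lay close together although their Fcer1g values ran from 146 to 212 RPKM.

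**Figure D4:**
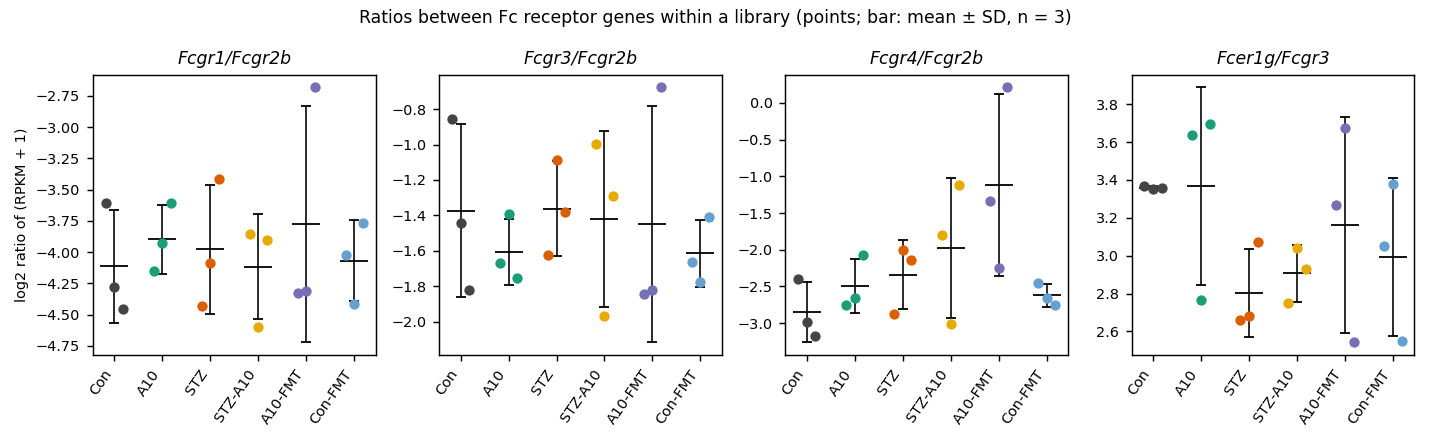
Log2 ratio of (RPKM + 1) of 2 members within a library (y axis) for 4 ratios in the 6 groups (x axis), with libraries as points and the mean and SD (n = 3) as bars. Fcgr4/Fcgr2b is higher in A10-FMT than in Con-FMT by 1.5, and Fcer1g/Fcgr3 is lower in STZ than in Con by 0.56.

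The signalling genes below the receptors were described next. Of 41 genes that carry the signal of activating Fc receptors (kinases, adaptors and phospholipases such as Syk and Lcp2), 4 were higher and 37 lower in STZ than in Con. Of all genes 52.4% were lower there. The median was -0.21 (median of all genes -0.01), and 0 passed the threshold (0.163% of all genes), with 6 at an unadjusted p under 0.05 (11.1% of all genes). All 41 were lower in A10-FMT than in STZ, as were 72.3% of all genes. Their median was -0.32 (median of all genes -0.15), with 0 past the threshold and 9 at an unadjusted p under 0.05 (17.2% of all genes). In A10-FMT against Con-FMT, 1 was higher and 40 lower, and 71.0% of all genes were lower. The median was -0.51 (median of all genes -0.17), with 0 past the threshold and 28 at an unadjusted p under 0.05 (23.6% of all genes). All 12 B cell and all 9 T cell markers were also lower in A10-FMT in both comparisons. No value of these lists without replicate 3 of A10-FMT is given. For the average effect of STZ, 1 of the 41 rose and 1 fell, against 3.3% of all genes past the threshold. Gab2, a docking adaptor of the IgE receptor pathway, rose by 0.47 on the log2(RPKM + 1) scale (SE 0.09, limma adjusted p = 0.0173), from means of 3.27 RPKM in Con and 2.92 in A10 to 4.81 in STZ and 4.56 in STZ-A10. Cdc42, a GTPase of phagocytosis, fell by 0.33 (SE 0.08, limma adjusted p = 0.0466).

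For the average effect of STZ, where 3.3% of all genes passed, 1 of 9 inhibitory signalling genes fell and 0 rose. This was Dok2, an adaptor that restrains signalling, which fell by 0.94 (SE 0.17, limma adjusted p = 0.0111), with means of 22.4 RPKM in Con, 19.2 in A10, 10.4 in STZ and 10.4 in STZ-A10. Of 14 adaptors with the ITAM motif and partners of Fcer1g, 2 fell and 0 rose in that comparison, against the same 3.3% of all genes. Gp6, the platelet collagen receptor that signals through Fcer1g, fell by 1.22 (SE 0.22, limma adjusted p = 0.0111), and in STZ against Con by 1.72 (SE 0.32, limma adjusted p = 0.0449), with means of 15.5 RPKM in Con and 4.44 in STZ. Gp6 is also one of the 12 platelet markers above. Ncr1, a natural killer cell receptor that uses the same chain, fell by 0.59 (SE 0.15, limma adjusted p = 0.0448), and is itself 1 of the 9 natural killer cell markers, all of which were lower in STZ than in Con.

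The calls of Dok2 and Gp6 for the average effect of STZ held under all 24 alternatives, whereas that of Gab2 was lost without replicate 2 of STZ (adjusted p = 0.0592). Those of Cdc42 and Ncr1 were lost under 17 and 16 of 24 alternatives, with adjusted p-values of up to 0.132 and 0.110, both without replicate 2 of STZ. The call of Gp6 in STZ against Con was lost under 19 of 24, with an adjusted p of up to 0.352 in a fit of the compared groups.

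Of 6 other immunoglobulin receptors tested, 0 passed in any comparison of limma, where 0% to 3.3% of all genes passed. In STZ against Con 1 of the 6 had an unadjusted p under 0.05, against 11.1% of all genes. The lowest p there was that of Pigr, the polymeric immunoglobulin receptor of epithelia, at -0.60 (SE 0.24, limma adjusted p = 0.338), and the next that of Trim21, a cytosolic antibody receptor, at 0.13 (adjusted p = 0.813). Fcmr, the IgM receptor of B cells, was the most abundant of them, with group means of 116 to 193 RPKM. Jchain, which joins IgM and IgA into polymers, was 0.57 lower in STZ than in Con (SE 0.33, limma adjusted p = 0.580). The antibody heavy and light chain constant genes looked for, such as Ighm, Ighg1 and Igkc, were not found by name among the genes with values here. Their levels are therefore not given.

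The genes whose pattern was most like that of each member were taken as the 3 with the highest Pearson r of log2(RPKM + 1) over the 18 libraries among 9355 tested genes with a mean of at least 5 RPKM. The points are single libraries that share scaling and group, so the values are descriptions. For Fcer2a they were Tec, Cnn2 and Fli1 (r of 0.94 to 0.96), and for Fcamr Cd4, Xkrx and Rhoh (0.94 to 0.95). For Fcgr2b they were Cd22, Fgd2 and Cd74 (0.97 to 0.98), and for Fcgrt Plvap, Lzts2 and Kank2 (0.94 to 0.95). For Fcgr3 they were Cd14, Tnfrsf1a and Ccl6 (0.87 to 0.89), and for Fcer1g Tbc1d8, Exoc3l4 and Sema4a (0.81 to 0.84, and 0.65 to 0.71 without replicate 3 of A10-FMT). For Fcgr4 they were Thap11, Phlda3 and Bcl2l15 (0.74 to 0.75), and for Fcgr1 Parp12, Nampt and Irf7 (0.72 to 0.75). Among the members themselves, Fcgr4 and Fcamr had the lowest r, -0.67 (rho -0.67, and r of -0.55 without replicate 3 of A10-FMT).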

How the data were processed

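Poly(A) RNA of whole mouse spleen was sequenced on a HiSeq 2500 in 18 libraries, 6 groups of 3, grouped by the labels. Reads were aligned to reference genes with SOAPaligner and scaled to RPKM values by the authors before they were deposited, and the submitters' processing notes also name mm10 and Bowtie 0.12.2. Strand, read length and read counts are not given in the sources used here. Values were taken as log2(RPKM + 1) for genes at 1 RPKM or more in at least 3 libraries (12905 of 19326 lines) and tested in 1 fit of all 18 libraries with limma 3.58.1 (R 4.3.3, trend, two-sided, Benjamini-Hochberg over all genes, threshold 0.05). Fold changes on this scale understate those of low genes. Ratios, and members less a marker list, were tested by exact permutation. The script was tested on simulated data. The members and lists were chosen with earlier results of these data known. All 8 members were named, the 3 genes most like each, and, of the signalling and immunoglobulin lists, genes past the threshold or, in lists with none, the 2 with the lowest p in STZ against Con. Marker lists are given by counts. Motifs and sequences came from RefSeq (GRCm38.p6), positions from GENCODE M21. Alternatives were 2 other scalings, no filter, a pseudocount of 0.1, a fit of the compared groups, a replicate block and leaving out each library. A comparison with a marker list, member less list, and leaving out libraries for 2 ratios were added after the values were seen.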

Additional observations from a re-analysis of the deposited data

How the results depend on the processing

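Of 384 differences of members under settings other than leaving out a library, 375 kept their direction and side of the threshold, 5 reversed and 4 became stronger past it. The reversals were of Fcer2a in A10 against Con (-0.030 under quantile normalization, -0.043 under median centring), of Fcgr1 under quantile normalization in STZ-A10 against STZ (-0.029) and in Con-FMT against STZ (-0.026), and of Fcer1g in A10-FMT against STZ under median centring (0.024). All of these were within 0.05 of 0 and the cause was not tested. Members past the threshold for the average effect of STZ numbered 1 under quantile normalization, 1 under median centring and 2 in the fit of the compared groups, where 689, 659 and 445 of all genes passed. No ratio reversed.

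Counts of all genes moved more. In STZ against Con 21 genes passed, against 10 under quantile normalization, 5 under median centring, 9 without the filter, 47 with a pseudocount of 0.1, 0 in the fit of the compared groups and 3 with the replicate block. In A10 against Con 1 passed, against 2, 2, 4 and 2 under the first 4 of these. Without the filter 6 passed in STZ-A10 against STZ, 9 in A10-FMT against STZ and 6 in Con-FMT against STZ, and in the fit of the compared groups 5 passed in A10-FMT against STZ. In A10-FMT against Con-FMT 1 passed with the pseudocount of 0.1 and 1 in the fit of the compared groups. The average effect of STZ gave 426, against those counts, and the test of all groups 58, against 98 under median centring and 21 with the replicate block. The F test has no fit of the compared groups.

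Replicate numbers gave no clear pairing of the libraries by their deviations from the group mean. Of 45 same-numbered pairs 14 correlated above 0.1, as did 23 of 90 other-numbered pairs, and 8 of 18 libraries correlated best with their own number. Between STZ and STZ-A10 the same-numbered r values were 0.57, 0.04 and 0.43. Whether the numbers mark a pairing was not tested. The replicate block left 0 members past the threshold, and Fcer2a had an adjusted p of 0.0629 for the average effect of STZ.

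Leaving out 1 library gave 1 to 234 genes in STZ against Con, 1 to 23 in A10 against Con, 1 to 87 in A10-FMT against STZ, 1 to 3 in Con-FMT against STZ, 0 to 2625 in A10-FMT against Con-FMT, 122 to 986 for the average effect of STZ and 4 to 814 in the test of all groups. Members past the threshold ran from 0 to 1, 0 to 3 and 0 to 2 in STZ against Con, A10-FMT against Con-FMT and the average effect of STZ. The highest of these counts came without replicate 3 of A10-FMT, except those of A10-FMT against Con-FMT and of all groups (without its replicate 2), A10 against Con (without replicate 3 of Con) and A10-FMT against STZ (without replicate 3 of STZ). Of 1152 such differences of members 46 reversed, none over 0.329 in size. In STZ against Con the ranges were -0.13 to 0.19 for Fcgr2b, -0.027 to 0.24 for Fcgr3 and -0.058 to 0.21 for Fcgrt. In A10 against Con they were -0.20 to 0.060 for Fcgr3, -0.24 to 0.14 for Fcer1g, -0.17 to 0.25 for Fcer2a and -0.091 to 0.15 for Fcgrt. In STZ-A10 against STZ they were -0.14 to 0.30 for Fcgr1, -0.14 to 0.41 for Fcgr3, -0.20 to 0.48 for Fcer2a and -0.16 to 0.23 for Fcamr. In A10-FMT against STZ they were -0.65 to 0.0031 for Fcgr2b, -0.41 to 0.20 for Fcer1g, -0.33 to 0.70 for Fcer2a and -0.72 to 0.22 for Fcamr. In Con-FMT against STZ they were -0.14 to 0.22 for Fcgr1, -0.076 to 0.18 for Fcer1g and -0.089 to 0.13 for Fcgrt. Fcer1g in A10-FMT against Con-FMT ran from -0.46 to 0.15, and Fcgr1 for the average effect of STZ from -0.041 to 0.18. For the interaction they were -0.053 to 0.26 for Fcgr2b, -0.034 to 0.51 for Fcgr3, -0.27 to 0.59 for Fcgr4, -0.20 to 0.47 for Fcer2a and -0.014 to 0.33 for Fcgrt.

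With 3 libraries a group the standard errors of the members were 0.19 to 0.42 on the log2 scale, and Fcgr1 rested on few reads. Read counts are not in the table used, so no counting interval is given.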
